A study of Mus musculus with 12 samples.

Results

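The genes described here are 35 nuclear genes of mitochondrial fuel burning: 5 of pyruvate entry, 14 of the tricarboxylic acid (TCA) cycle and its isoenzymes, 3 of the carnitine shuttle, 9 of fatty acid beta-oxidation, 3 of the electron transfer flavoprotein system, and Acat1 of ketone body metabolism. They were chosen by name as a pathway list, with earlier results of these data known, and found by symbol among the 31054 genes of the count tables. All 35 passed the filter on low counts, which kept 13141 genes. RNA sequencing had been done on bone marrow cells of wild-type C57BL6 mice in culture, enriched on day 7 as live cells positive for CD11c, the integrin chain used to recognise dendritic cells. The 4 groups of 3 libraries each were TolDC+LPS (cells given vitamin D3 and interleukin 10, then lipopolysaccharide), TolDC (vitamin D3 and interleukin 10 alone), BMDC+LPS (lipopolysaccharide alone) and BMDC (no treatment). Lipopolysaccharide (LPS) is the bacterial cell wall component that signals through Toll-like receptor 4, and vitamin D3 with interleukin 10 is a recipe for tolerogenic dendritic cells, which restrain T cells. The series concerns such cells in acute kidney injury. Doses and the length of LPS exposure were not given in the sources used here, and neither was the number of mice behind a library.

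Pyruvate from glucose enters the mitochondrion and becomes acetyl-CoA through the pyruvate dehydrogenase complex, or oxaloacetate through pyruvate carboxylase. Fatty acids are carried in as carnitine esters and shortened by beta-oxidation, which also yields acetyl-CoA and passes electrons to the respiratory chain through electron transfer flavoprotein. The TCA cycle oxidises acetyl-CoA. In dendritic cells and macrophages LPS is known to shift metabolism toward glycolysis, and in macrophages breaks in the cycle at isocitrate and succinate have been described. Tolerogenic dendritic cells have been described as relying more on oxidative metabolism.

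Each library held 21844405 to 41764975 reads assigned to genes, and mitochondrially encoded transcripts took 1.94% to 2.30% of them. Levels are CPM, that is, counts scaled to a common library total, with TMM factors. Changes are log2 ± SE from edgeR's quasi-likelihood test on all 12 libraries, and a gene was called at a Benjamini-Hochberg adjusted p below 0.05 over all 13141 genes. The labels do not tell whether the 3 libraries of a group were separate cultures or mice, and every p-value therefore reflects only how these libraries vary, possibly for technical reasons. In bulk samples, fewer cells of a type and less RNA per cell cannot be told apart. The dendritic cell label was checked against 9 markers. Itgax, which encodes CD11c, and the MHC class II genes Cd74, H2-Ab1 and H2-Eb1 were abundant in every library (Itgax at 1250.5 CPM or more). The macrophage markers Cd68 and Csf1r were also abundant. Flt3, the receptor of conventional dendritic cell precursors, stood at most at 1.75 CPM. Zbtb46 averaged 16.4 CPM in TolDC+LPS, 16.8 in TolDC, 64.1 in BMDC+LPS and 31.9 in BMDC. In that order Batf3 averaged 64.3, 49.8, 167 and 123 CPM, Ciita 39.6, 49.9, 44.6 and 26.5, and Irf4 393, 512, 452 and 386. Still in that order, H2-Ab1 averaged 1280, 814, 496 and 331 CPM, H2-Eb1 1243, 621, 574 and 300, and Cd74 6820, 4215, 8085 and 4240. Of the 9 markers, 6 were called lower and 2 higher in TolDC+LPS than in BMDC+LPS, beside 33.7% and 34.3% of all tested genes. Without LPS, 3 were lower and 4 higher in TolDC than in BMDC, beside 30.4% and 32.0%, so these counts lie near the background. The part of these differences in the results was not tested.

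Libraries numbered 1 stood apart in all 4 groups. Summed over 9 neutrophil markers, they held 167 CPM in TolDC+LPS, 123 CPM in TolDC, 330.1 CPM in BMDC+LPS and 600.04 CPM in BMDC. The libraries numbered 2 and 3 held 414 to 495 CPM in TolDC+LPS, 613 to 627 CPM in TolDC, 1462 to 1615 CPM in BMDC+LPS and 2440 to 2510.02 CPM in BMDC. Mast cell and basophil markers were lower in the libraries numbered 1 as well (26.3 to 48.8 CPM, against 107 to 239 CPM in the others). Within a group, the count-based chi-square per degree of freedom was 5.16 to 11.6 between library 1 and another and 1.35 to 2.30 between libraries 2 and 3, so no pair agreed within sampling noise. For the 35 genes the median coefficient of variation within a group was 2.94% to 4.34%. Of the 35, 24 in TolDC+LPS, 23 in TolDC, 22 in BMDC+LPS and 17 in BMDC were highest in library 1. In TolDC against BMDC, 4 of the 9 neutrophil markers were called lower without LPS and 2 with LPS, beside 30.4% and 33.7% of all tested genes. Of the 9, Elane fell with LPS in BMDC, and the sums of TolDC+LPS and TolDC overlapped. The part of these transcripts in the results was not tested. The member counts without the 4 libraries numbered 1 stand beside each comparison, and they rest on libraries 2 and 3, the more alike ones. With libraries 2 and 3 of each group summed to 1 sample instead, 26 of the 35 fell with LPS in TolDC and 28 in BMDC. In that setting 20 were lower in TolDC than in BMDC without LPS and 13 with LPS. Of 13613 tested genes there, 4300 fell with LPS in TolDC and 4427 in BMDC. Lower in TolDC than in BMDC were 3662 without LPS and 4142 with LPS.

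In TolDC, LPS lowered most of the pathway. Of the 35 genes, 29 fell in TolDC+LPS against TolDC, 1 rose (Pcx) and 5 were not called, where 35.9% of all tested genes fell and 35.4% rose (71.3% called in either direction). The median log2 change was −0.36 over the 35 genes and −0.0017 over all tested genes. In the TCA cycle 13 of 14 genes fell (median log2 change −0.64), in beta-oxidation 8 of 9 (−0.26), in the carnitine shuttle 2 of 3 (−0.35), and all 3 electron transfer flavoprotein genes (−0.46). The 6 genes that fell to a level at most 0.5 times that of TolDC were Suclg2, Idh2, Acat1, Idh3a, Idh1 and Acaa2. How many of all tested genes fell that far was not counted. Without the 4 libraries numbered 1, 30 fell and 1 rose.

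In BMDC the fall was as broad. In BMDC+LPS against BMDC, 30 genes fell, 2 rose (Pcx and Cs) and 3 were not called, where 36.4% of all tested genes fell and 36.7% rose (73.2% in either direction). The median log2 change was −0.53 over the 35 genes, beside −0.00029 over all tested genes. The TCA cycle held 13 falls of 14 (median −0.79), beta-oxidation 7 of 9 (−0.39), and the carnitine shuttle and electron transfer flavoprotein system 3 of 3 each (−0.20 and −0.62). The 8 genes that fell to at most 0.5 times their BMDC level were those 6 with Fh1 and Mdh2, and the same count over all tested genes was not made. Without the 4 libraries numbered 1, again 30 fell and 2 rose. The LPS responses in TolDC and BMDC, which share no library, had a Pearson r of 0.93 and a Spearman rho of 0.84 across the 35 genes. That is a description, since genes are not independent replicates and Pcx lies far from the rest. Calls in the same direction covered 27 falls and the rise of Pcx.

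**Figure D1:**
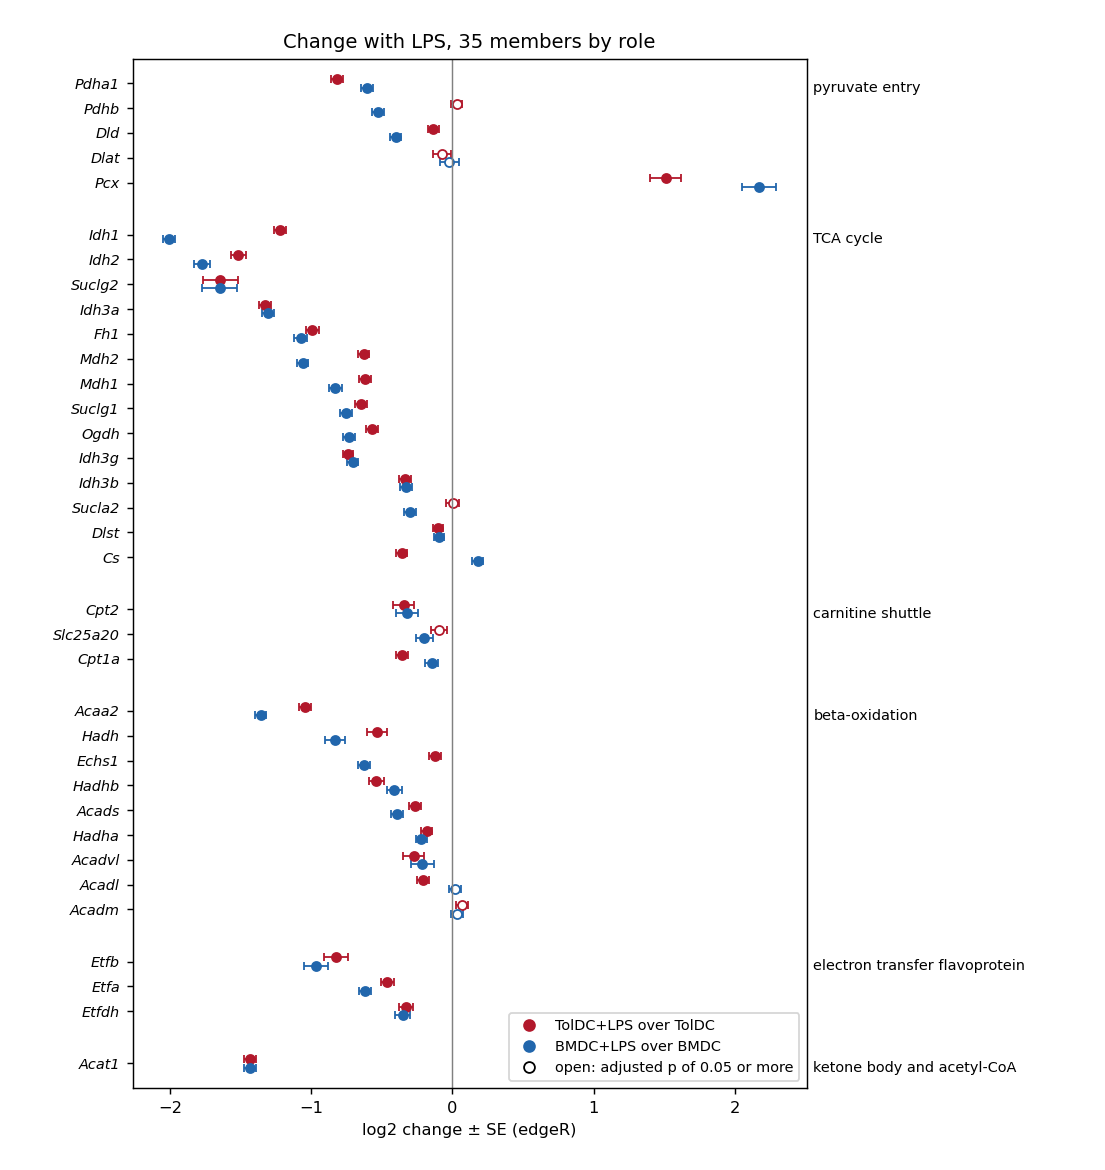
Log2 change with LPS (x axis, ± SE from edgeR) of each of the 35 genes, grouped by role, in TolDC (red) and BMDC (blue), with open circles where the adjusted p was 0.05 or more. Nearly all points lie left of 0, Idh1 in BMDC is farthest left at −2.01, and Pcx lies to the right at 1.51 in TolDC and 2.17 in BMDC.

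Without LPS, TolDC had slightly lower levels than BMDC. In TolDC against BMDC, 21 of the 35 genes were lower, 5 were higher (Mdh1, Acadvl, Pcx, Dlat and Idh1) and 9 were not called, where 30.4% of all tested genes were lower and 32.0% higher (62.4% in either direction). The changes were small, with a median log2 of −0.19 (0.0091 over all tested genes) and a range of −0.45 to 0.78. All 3 electron transfer flavoprotein genes were lower. Without the 4 libraries numbered 1, 25 were lower and 5 higher. Calls of 2 genes here rested on single libraries. Suclg2 was not called without BMDC replicate 2 or TolDC replicate 3 (log2 −0.27 to −0.24), and Hadh was not called without TolDC replicate 2 or 3 (−0.18 to −0.17).

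With LPS, the cell types differed in both directions. In TolDC+LPS against BMDC+LPS, 15 of the 35 genes were lower, 7 were higher (Idh1, Mdh1, Acadvl, Dlat, Echs1, Pdhb and Dld) and 13 were not called, where 33.7% of all tested genes were lower and 34.3% higher (67.9% in either direction). The median log2 change was −0.078, beside 0.024 over all tested genes, and the range −0.60 to 1.16. The members' count of lower genes stood a little above the share over all genes and that of higher genes below it. Without the 4 libraries numbered 1, 15 were lower and 8 higher. Calls of 5 genes ended when 1 library was left out, each at a log2 change between −0.32 and 0.092. They were Fh1 (8 of the 12 libraries, those other than BMDC replicates 1 and 3, BMDC+LPS replicate 1 and TolDC+LPS replicate 1; −0.11 to −0.080), Suclg2 (7 libraries: BMDC replicate 1, BMDC+LPS replicate 2, each TolDC replicate and TolDC+LPS replicates 1 and 3; −0.32 to −0.17), Idh3b (6 libraries: BMDC+LPS replicate 1, each TolDC replicate and TolDC+LPS replicates 2 and 3; −0.11 to −0.051), Dld (BMDC+LPS replicate 2 and TolDC+LPS replicate 1; 0.072 to 0.092) and Etfb (BMDC+LPS replicate 3; −0.20).

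**Figure D2:**
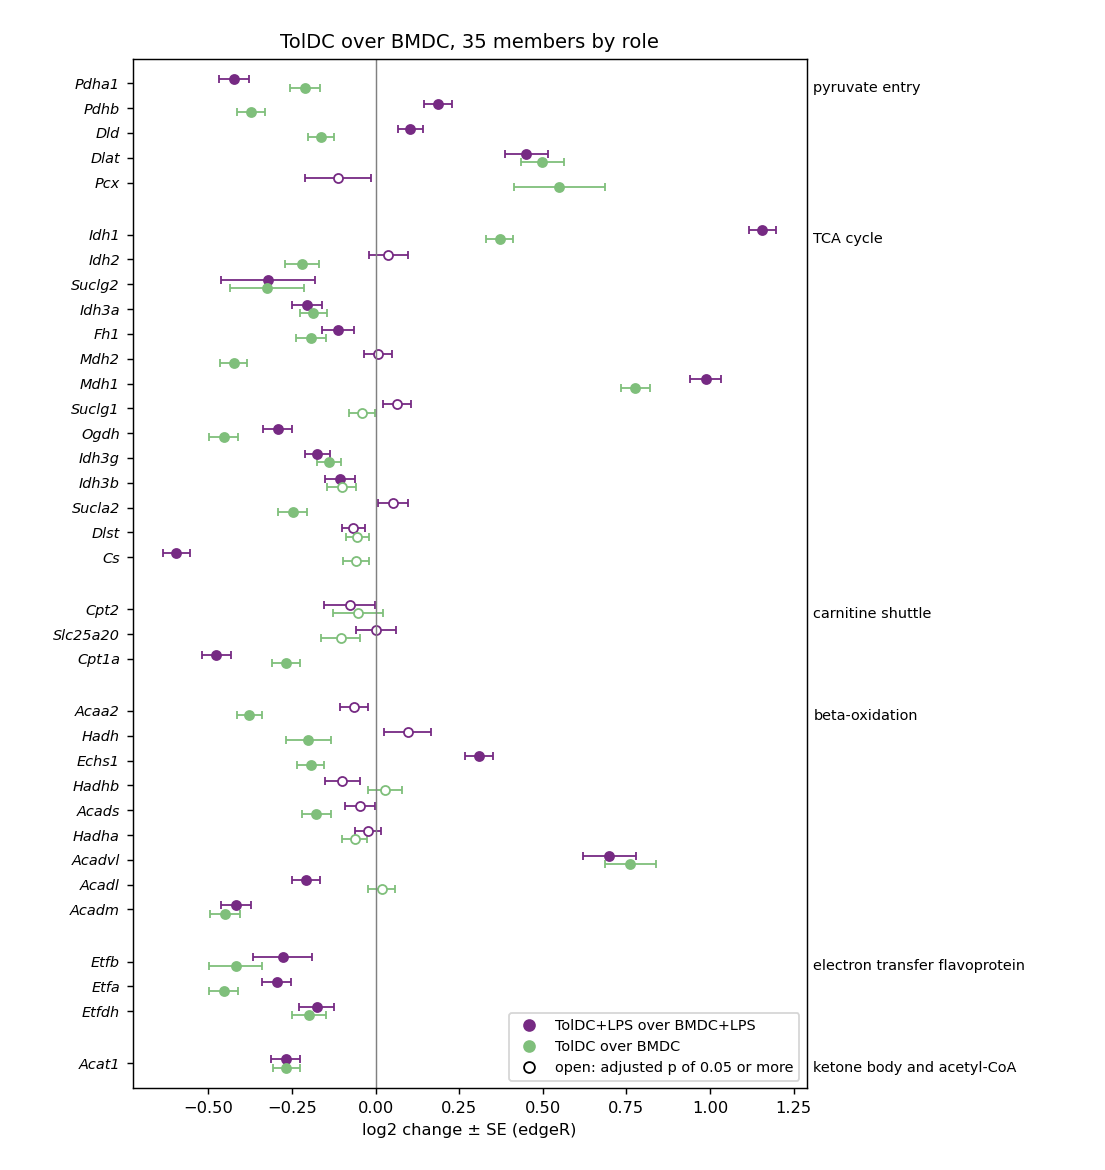
Log2 change of TolDC over BMDC (x axis, ± SE from edgeR) of each of the 35 genes by role, with LPS (purple) and without (green), with open circles where the adjusted p was 0.05 or more. Idh1, Mdh1, Acadvl and Dlat lie right of 0 in both comparisons, and Pdhb, Dld and Echs1 lie right of 0 with LPS and left of it without.

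The difference between the LPS responses, TolDC minus BMDC, was called for 17 of the 35 genes: 12 positive and 5 negative, where 20.4% of all tested genes were positive and 24.0% negative (44.4% in either direction). The positive count lies above that share, the negative one below it, and the 17 together near it. Positive differences were led by Idh1 (0.79), Pdhb (0.56), Echs1 (0.50) and Mdh2 (0.43), all of which fell less in TolDC or, for Pdhb, were not called there. Negative ones were those of Pcx, Cs, Acadl, Pdha1 and Cpt1a. The median over the 35 genes was 0.040, beside −0.0095 over all tested genes. Without the 4 libraries numbered 1, the counts were again 12 and 5, and 2931 of 13150 tested genes were positive and 3289 negative. With libraries 2 and 3 of each group summed to 1 sample, leaving 2 samples per group, the member counts were 7 and 3. Of 13613 tested genes there, 1994 were positive and 2424 negative. That setting ended the calls of Cpt1a, Pdha1, Idh2, Mdh1, Hadh, Ogdh and Etfa (edgeR adjusted p = 0.0516 to 0.198).

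**Figure D3:**
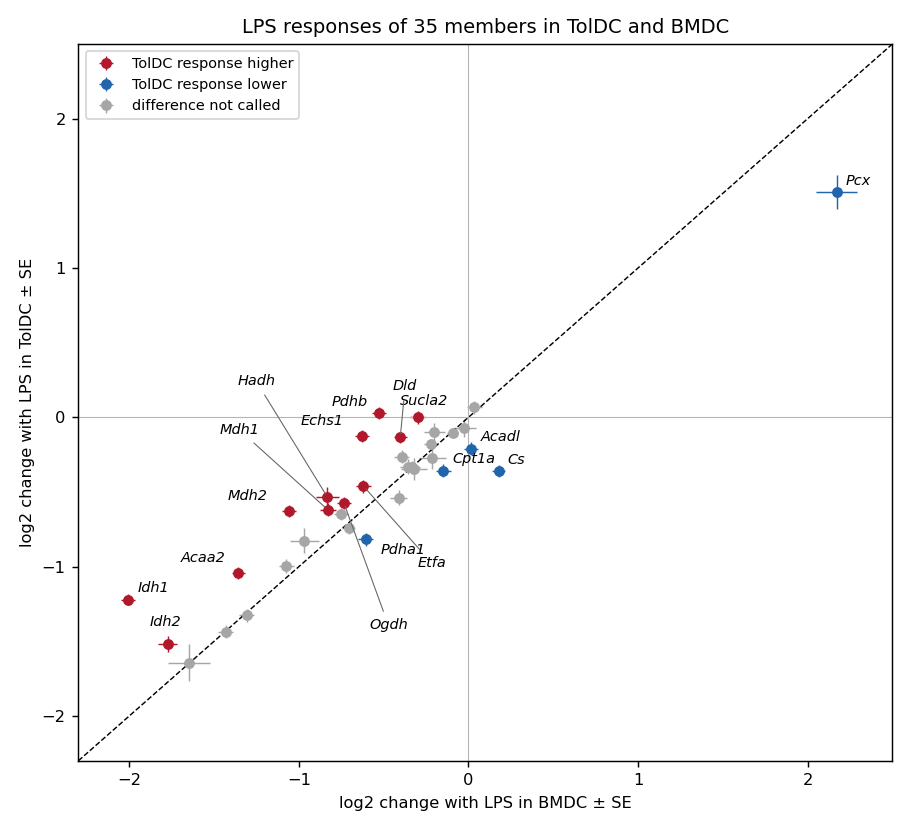
Log2 change with LPS in TolDC (y axis) against that in BMDC (x axis), both ± SE, for the 35 genes, with the line of equal change dashed. The 12 genes with a called positive difference (red) lie above the line, among them Idh1 at −1.22 in TolDC and −2.01 in BMDC, and the 5 with a negative one (blue) lie below it.

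Among genes of pyruvate entry, Pcx went against the list. Pcx (ENSMUSG00000024892, chr19:4510472-4621752, plus strand) encodes pyruvate carboxylase, which refills the cycle with oxaloacetate. It was at 8.06, 7.20 and 7.61 CPM in TolDC+LPS, 3.05, 2.33 and 2.64 CPM in TolDC, 8.37, 8.29 and 8.05 CPM in BMDC+LPS and 1.87, 1.94 and 1.64 CPM in BMDC. All 6 LPS libraries lay above all 6 unstimulated ones. LPS raised it 2.85-fold in TolDC (log2 1.51 ± 0.11, edgeR adjusted p = 5.39e-10) and 4.50-fold in BMDC (2.17 ± 0.12, adjusted p = 5.88e-12). Without LPS, Pcx was higher in TolDC than in BMDC (0.55 ± 0.14, adjusted p = 0.00180), and with LPS the ranges overlapped (−0.11 ± 0.098, adjusted p = 0.320). Per kilobase of its principal transcript, Pcx was the lowest of the 35 genes in TolDC and in BMDC.

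The first promoter window of Pcx is shown because Pcx is the member that rose in both cell types. Windows of 250 bases before and 50 bases after the start site came from RefSeq (GRCm38.p6) and covered 32 of the 35 genes. Both strands were searched for the letters of 6 motifs. Those were the CCAAT box (CCAAT), the E-box read by Myc and related factors (CACGTG), a core bound by nuclear respiratory factor 1 (GCGCATGC), an ETS element as bound by GA-binding protein (CCGGAAGT), an element of oestrogen-related receptors (TNAAGGTCA) and a kappaB site (GGGACTTTC). A motif was counted once per gene however many windows or matches it had, and matches of different motifs did not overlap in the members' windows. In this window capitals mark 3 CCAAT boxes and 1 E-box. A second Pcx window further downstream holds 1 more CCAAT box, 35 bases after its start site.
Pcx, chr19:4510222-4510521, plus strand: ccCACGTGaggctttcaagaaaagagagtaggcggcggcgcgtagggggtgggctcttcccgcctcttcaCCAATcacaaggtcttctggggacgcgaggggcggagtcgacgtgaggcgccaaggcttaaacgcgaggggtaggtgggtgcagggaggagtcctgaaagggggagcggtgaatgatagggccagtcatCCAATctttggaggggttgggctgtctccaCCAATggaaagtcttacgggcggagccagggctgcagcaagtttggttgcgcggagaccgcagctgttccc

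Across the members, CCAAT occurred in windows of 16 of 32 genes (50.0%), beside 43.1% of the 10205 tested genes with a window. GCGCATGC occurred in 4 (12.5%, beside 5.82%), namely Acadm, Etfa, Etfdh and Ogdh. CCGGAAGT occurred in 3 (9.38%, beside 9.12%) and CACGTG in 2 (6.25%, beside 11.7%). Neither TNAAGGTCA (0.921% of tested genes) nor GGGACTTTC (0.470%) was found in a member's window. These are matches of letters in a short window and no evidence of binding or of its absence.

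The subunits of pyruvate dehydrogenase parted in TolDC. Pdha1 encodes the alpha and Pdhb the beta subunit of its first enzyme. Pdha1 was at 95.6, 94.4 and 96.8 CPM in TolDC+LPS, 171, 167 and 167 CPM in TolDC, 138, 124 and 122 CPM in BMDC+LPS and 201, 195 and 188 CPM in BMDC. It fell with LPS in both cell types, by 0.82 on the log2 scale in TolDC (edgeR adjusted p = 5.40e-12) and by 0.60 in BMDC (adjusted p = 4.01e-10). Pdhb was at 99.9, 93.9 and 92.2 CPM in TolDC+LPS, 94.7, 93.9 and 91.6 CPM in TolDC, 87.1, 80.3 and 83.8 CPM in BMDC+LPS and 118, 122 and 122 CPM in BMDC. It fell in BMDC (−0.53 ± 0.041, edgeR adjusted p = 1.08e-09), while in TolDC the libraries with and without LPS overlapped (0.030 ± 0.041, adjusted p = 0.531). That difference between responses was itself called (0.56 ± 0.058, adjusted p = 3.55e-07). The ratio of Pdha1 to Pdhb, per kilobase, was 0.533 ± 0.0247 in TolDC+LPS, 0.957 ± 0.0113 in TolDC, 0.812 ± 0.0356 in BMDC+LPS and 0.857 ± 0.0446 in BMDC (SD, n = 3 each). Every TolDC+LPS library lay below every library of the other groups, and in an exact permutation test of TolDC+LPS against TolDC the two-sided p was 0.1, the smallest that 3 against 3 allows. Of the 75-base windows of the Pdhb transcript, 19.9% also occur in the pseudogene Gm6123. Of those of Pdha1, 13.9% lie in Map3k15, which overlaps it on the opposite strand, and counts made without regard to strand kept 73.6% of its reads. The levels of both genes, and their ratio, are less certain for that.

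Dlat encodes the acetyltransferase core of the complex, and Dld its dihydrolipoyl dehydrogenase, which also serves 2-oxoglutarate dehydrogenase. Dlat was at 35.3, 36.96 and 37.8 CPM in TolDC+LPS, 35.3, 40.9 and 39.7 CPM in TolDC, 25.5, 29.4 and 25.9 CPM in BMDC+LPS and 25.6, 28.5 and 27.8 CPM in BMDC. LPS left it uncalled in both cell types (log2 −0.072 ± 0.063 in TolDC and −0.024 ± 0.067 in BMDC), and TolDC libraries were all above BMDC libraries, with LPS (0.45 ± 0.065, edgeR adjusted p = 6.14e-06) and without (0.50 ± 0.065, adjusted p = 2.12e-06). Dld was at 102, 102 and 101 CPM in TolDC+LPS, 113, 113 and 108 CPM in TolDC, 97.1, 90.1 and 96.3 CPM in BMDC+LPS and 126, 128 and 121 CPM in BMDC. It fell less in TolDC (−0.13 ± 0.038) than in BMDC (−0.40 ± 0.039), a difference of 0.27 ± 0.054 (edgeR adjusted p = 5.69e-04).

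Citrate synthase was the one member that LPS moved in opposite directions in the 2 cell types. Cs, which joins acetyl-CoA and oxaloacetate at the entrance of the cycle, lies at chr10:128337734-128362479, plus strand. It was at 288, 278 and 279 CPM in TolDC+LPS, 373, 355 and 356 CPM in TolDC, 447, 413 and 417 CPM in BMDC+LPS and 384, 372 and 372 CPM in BMDC. The 3 BMDC+LPS libraries were the highest and the 3 TolDC+LPS libraries the lowest of the 12. LPS lowered Cs in TolDC (−0.36 ± 0.039, edgeR adjusted p = 1.38e-07) and raised it in BMDC (0.18 ± 0.039, adjusted p = 4.53e-04), a difference between responses of −0.54 ± 0.055 (adjusted p = 3.10e-07). Without LPS the 2 cell types differed by −0.057 ± 0.039 (adjusted p = 0.213, not called), and with LPS Cs was 1.51-fold lower in TolDC+LPS (adjusted p = 1.52e-10).

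Both NADP-dependent isocitrate dehydrogenase genes fell strongly with LPS. They held the largest falls of the 35 genes in BMDC, while in TolDC Suclg2 fell most. Idh1 (ENSMUSG00000025950, chr1:65158616-65186500, minus strand) encodes the NADP-dependent enzyme of cytosol and peroxisome, and Idh2 (ENSMUSG00000030541, chr7:80094846-80115392, minus strand) that of mitochondria. Idh1 was at 243, 231 and 231 CPM in TolDC+LPS, 567, 536 and 539 CPM in TolDC, 109.9, 104 and 102 CPM in BMDC+LPS and 427, 429.6 and 413 CPM in BMDC. The groups did not overlap, in the order TolDC, BMDC, TolDC+LPS and BMDC+LPS from high to low. LPS lowered Idh1 2.33-fold in TolDC (log2 −1.22 ± 0.040, edgeR adjusted p = 3.25e-15) and 4.02-fold in BMDC (−2.01 ± 0.042, adjusted p = 3.23e-18). The difference of 0.79 ± 0.057 was the largest of the 35 genes (adjusted p = 3.51e-09), and Idh1 was 2.23-fold higher in TolDC+LPS than in BMDC+LPS and 1.29-fold higher in TolDC than in BMDC.

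Idh2 was at 25.9, 24.7 and 26.01 CPM in TolDC+LPS, 70.6, 74.9 and 73.9 CPM in TolDC, 22.6, 25.6 and 26.7 CPM in BMDC+LPS and 81.1, 85.99 and 88.5 CPM in BMDC. All LPS libraries of both cell types lay between 22.6 and 26.7 CPM, and the unstimulated ones between 70.6 and 88.5 CPM. The fall was 2.86-fold in TolDC (−1.52 ± 0.054, edgeR adjusted p = 1.03e-14) and 3.42-fold in BMDC (−1.77 ± 0.056, adjusted p = 1.40e-15). Idh2 was lower in TolDC than in BMDC without LPS (−0.22 ± 0.051, adjusted p = 9.97e-04), and not called with LPS (0.038 ± 0.059, adjusted p = 0.577). The ratio of Idh1 to Idh2 per kilobase was 6.97 ± 0.197 in TolDC+LPS, 5.68 ± 0.360 in TolDC, 3.22 ± 0.412 in BMDC+LPS and 3.77 ± 0.231 in BMDC (SD, n = 3 each). Their promoter windows are shown as those of the isoenzyme pair with the largest falls in BMDC. Capitals mark the CCAAT box, 1 in each window, 151 bases before the start site in Idh1 and 44 before it in Idh2. Idh1 has a second window further downstream with no match to the 6 motifs.
Idh1, chr1:65186430-65186729, minus strand: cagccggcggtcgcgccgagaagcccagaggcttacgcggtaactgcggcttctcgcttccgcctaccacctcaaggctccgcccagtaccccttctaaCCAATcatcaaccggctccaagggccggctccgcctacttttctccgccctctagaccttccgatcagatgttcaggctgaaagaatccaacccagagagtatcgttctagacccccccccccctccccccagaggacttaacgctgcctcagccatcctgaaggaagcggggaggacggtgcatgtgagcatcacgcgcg
Idh2, chr7:80115301-80115600, minus strand: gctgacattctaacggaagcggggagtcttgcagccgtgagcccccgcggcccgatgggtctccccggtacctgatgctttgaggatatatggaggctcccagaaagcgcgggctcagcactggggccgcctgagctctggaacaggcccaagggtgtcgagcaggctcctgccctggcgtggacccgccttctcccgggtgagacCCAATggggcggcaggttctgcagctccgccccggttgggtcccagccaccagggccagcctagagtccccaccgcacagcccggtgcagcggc

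The NAD-dependent isocitrate dehydrogenase of the cycle has a catalytic alpha subunit (Idh3a) and the further subunits beta (Idh3b) and gamma (Idh3g), and the 3 genes fell by unequal amounts. Idh3a was at 33.5, 32.3 and 30.97 CPM in TolDC+LPS, 81.6, 78.5 and 82.1 CPM in TolDC, 38.3, 37.2 and 35.8 CPM in BMDC+LPS and 91.3, 93.8 and 90.5 CPM in BMDC. It fell 2.51-fold in TolDC and 2.48-fold in BMDC (edgeR adjusted p = 2.32e-15 and 2.66e-15), with no overlap. Idh3g was at 81.3, 76.3 and 80.3 CPM in TolDC+LPS, 134, 131 and 133 CPM in TolDC, 91.8, 87.9 and 88.6 CPM in BMDC+LPS and 144, 145 and 149 CPM in BMDC. Its fall was 1.67-fold in TolDC and 1.63-fold in BMDC. Idh3b was at 118, 112 and 116 CPM in TolDC+LPS, 147, 146 and 144 CPM in TolDC, 133, 119 and 120.4 CPM in BMDC+LPS and 162, 151 and 156 CPM in BMDC. It fell 1.26-fold in TolDC and 1.26-fold in BMDC, the least of the 3 subunits. The ratio of Idh3a to Idh3g per kilobase was 0.225 ± 0.0106 in TolDC+LPS, 0.337 ± 0.00415 in TolDC, 0.230 ± 0.00547 in BMDC+LPS and 0.348 ± 0.0114 in BMDC. It was lower in all LPS libraries of a cell type than in all unstimulated ones (exact two-sided permutation p = 0.1 in each, the smallest possible), and the difference between responses was not called for any of the 3 subunits (log2 −0.017 ± 0.060, −0.0047 ± 0.062 and −0.035 ± 0.052).

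**Figure D4:**
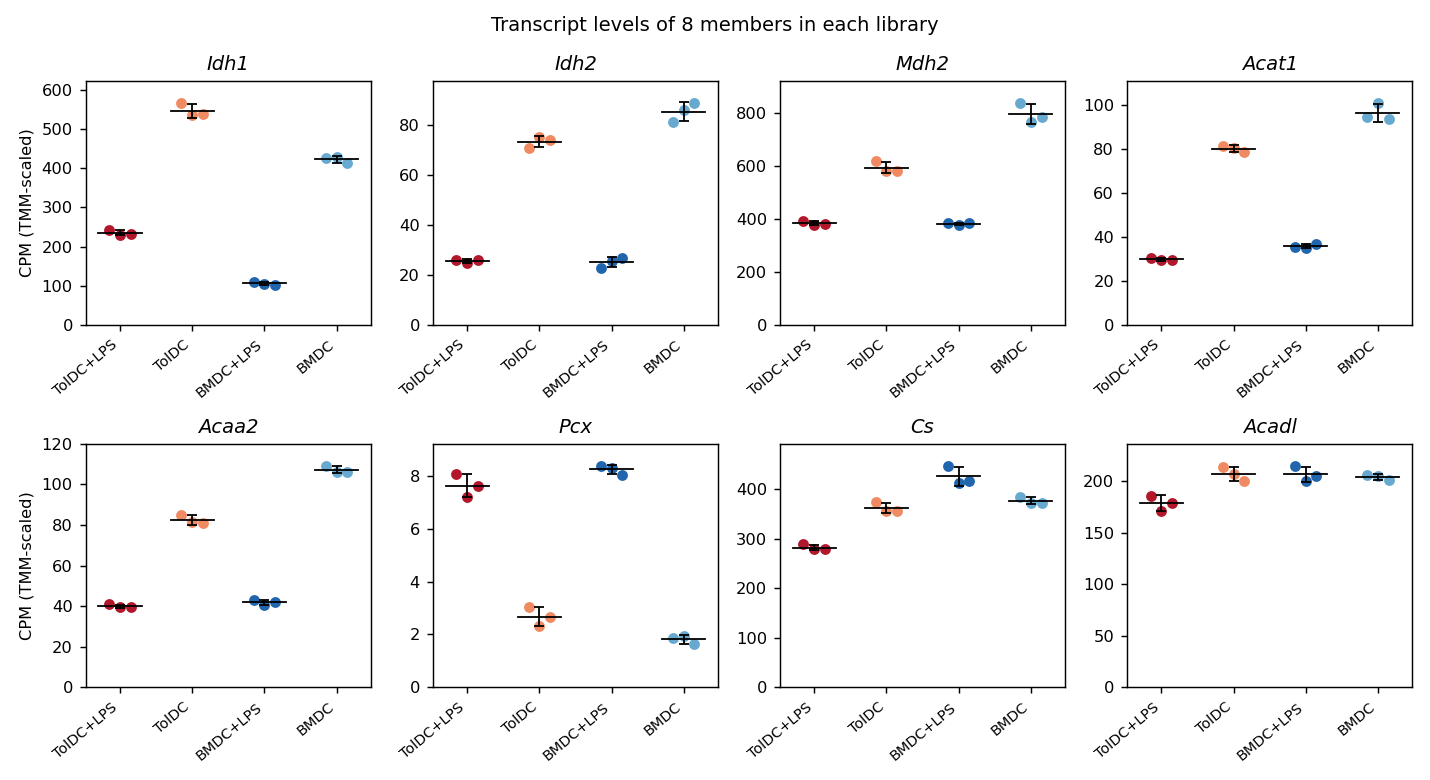
CPM (y axis, from 0) of 8 genes in each library (points) of the groups TolDC+LPS, TolDC, BMDC+LPS and BMDC, with the mean and SD of 3 libraries as a bar. Idh2, Mdh2 and Acaa2 lie at like levels in both LPS groups, Idh1 is higher in TolDC+LPS (231 to 243 CPM) than in BMDC+LPS (102 to 109.9 CPM), and Cs is highest in BMDC+LPS.

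Further round the cycle, Ogdh and Dlst encode the decarboxylating enzyme and the succinyltransferase of the 2-oxoglutarate dehydrogenase complex. Ogdh was at 196, 186 and 189 CPM in TolDC+LPS, 289, 275 and 285 CPM in TolDC, 245, 226 and 228 CPM in BMDC+LPS and 405, 375 and 384 CPM in BMDC. It fell with LPS (−0.57 ± 0.042 in TolDC and −0.73 ± 0.042 in BMDC, edgeR adjusted p = 5.48e-10 and 1.23e-11) and was lower in TolDC than in BMDC, with LPS (−0.29 ± 0.043) and without (−0.45 ± 0.042). The difference between responses was 0.16 ± 0.060 (adjusted p = 0.0351), and it was not called in 7 of the 12 fits that left out 1 library each (BMDC replicate 1, BMDC+LPS replicates 2 and 3, TolDC replicates 2 and 3, TolDC+LPS replicates 1 and 3; log2 0.13 to 0.17). Dlst moved little. It was at 181 ± 2.24 CPM in TolDC+LPS, 194 ± 3.87 in TolDC, 189 ± 3.31 in BMDC+LPS and 202 ± 2.64 in BMDC (SD, n = 3), with called falls of −0.10 ± 0.034 and −0.093 ± 0.034 that ended without TolDC replicate 1 (−0.089) and without BMDC replicate 3 or BMDC+LPS replicate 2 (−0.080 to −0.078).

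Succinyl-CoA ligase pairs one alpha subunit (Suclg1) with a GTP-forming (Suclg2) or an ATP-forming (Sucla2) beta subunit, and the beta subunits differed. Suclg2 was at 2.87, 3.67 and 2.998 CPM in TolDC+LPS, 10.03, 10.5 and 9.16 CPM in TolDC, 3.52, 4.84 and 3.60 CPM in BMDC+LPS and 11.9, 13.7 and 11.4 CPM in BMDC. It fell 3.12-fold in TolDC and 3.13-fold in BMDC with LPS (log2 −1.64 ± 0.12 and −1.65 ± 0.12, edgeR adjusted p = 7.35e-10 and 6.07e-10). Sucla2 was at 59.5, 57.6 and 59.95 CPM in TolDC+LPS, 58.5, 59.4 and 59.1 CPM in TolDC, 59.5, 54.5 and 56.5 CPM in BMDC+LPS and 67.5, 73.9 and 68.6 CPM in BMDC. It fell in BMDC (−0.30 ± 0.044, edgeR adjusted p = 6.65e-06), and in TolDC the groups overlapped (0.0011 ± 0.044, adjusted p = 0.984), a difference of 0.30 ± 0.063 (adjusted p = 7.16e-04). The ratio of Suclg2 to Sucla2 per kilobase was 0.0357 ± 0.00558 in TolDC+LPS, 0.111 ± 0.00769 in TolDC, 0.0467 ± 0.0106 in BMDC+LPS and 0.117 ± 0.00628 in BMDC (SD, n = 3 each), so the ATP-forming subunit's transcript was the more abundant in every group. Of the 75-base windows of Suclg2, 16.0% also occur in the pseudogene Gm15163. Suclg1 fell by 0.65 in TolDC and by 0.75 in BMDC on the log2 scale (edgeR adjusted p = 3.69e-11 and 4.58e-12) and was not called between cell types.

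Fh1, the fumarate hydratase, was at 39.3, 36.9 and 36.8 CPM in TolDC+LPS, against 73.8, 75.96 and 75.2 CPM in TolDC, and at 39.02, 42.6 and 40.7 CPM in BMDC+LPS, against 81.5, 86.2 and 89.5 CPM in BMDC. In each cell type all LPS libraries lay below all unstimulated ones, with log2 changes of −0.99 ± 0.046 and −1.07 ± 0.047 (edgeR adjusted p = 4.99e-13 and 1.63e-13).

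Without LPS the malate dehydrogenases differed between the cell types in opposite directions, and with LPS only Mdh1 was called. Mdh1 encodes the cytosolic and Mdh2 the mitochondrial enzyme, partners in the malate-aspartate shuttle. Mdh1 was at 127, 125 and 126 CPM in TolDC+LPS, 191, 196 and 193 CPM in TolDC, 60.8, 64.7 and 65.2 CPM in BMDC+LPS and 105, 114 and 120.1 CPM in BMDC. Every TolDC+LPS library was above every BMDC library, and TolDC was highest. Mdh1 was 1.98-fold higher in TolDC+LPS than in BMDC+LPS (0.99 ± 0.046, edgeR adjusted p = 8.65e-13) and 1.71-fold higher in TolDC than in BMDC (0.78 ± 0.044, adjusted p = 2.33e-11), and it fell with LPS in both (−0.62 ± 0.044 and −0.83 ± 0.046). Mdh2 was at 394, 378 and 380.3 CPM in TolDC+LPS, 619, 582 and 580.1 CPM in TolDC, 384, 378 and 384 CPM in BMDC+LPS and 837, 767 and 785 CPM in BMDC. It was lower in TolDC than in BMDC without LPS (−0.42 ± 0.040, edgeR adjusted p = 3.44e-08), fell less in TolDC (−0.63 ± 0.040) than in BMDC (−1.06 ± 0.041), and overlapped between cell types with LPS (0.0071 ± 0.040, adjusted p = 0.884). The ratio of Mdh1 to Mdh2 per kilobase was 0.225 ± 0.00274 in TolDC+LPS, 0.224 ± 0.0101 in TolDC, 0.114 ± 0.00480 in BMDC+LPS and 0.0976 ± 0.0103 in BMDC (SD, n = 3 each). Per kilobase, Mdh2 was the most abundant of the 35 transcripts in every group, at 264, 408, 262 and 547 CPM per kb in TolDC+LPS, TolDC, BMDC+LPS and BMDC.

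In the carnitine shuttle the changes were small. Cpt1a encodes the outer membrane carnitine palmitoyltransferase that controls entry of long-chain fatty acids. It was at 95.4, 96.01 and 94.2 CPM in TolDC+LPS, 125, 124 and 117 CPM in TolDC, 140.1, 128 and 129 CPM in BMDC+LPS and 152, 141 and 147 CPM in BMDC. TolDC+LPS libraries were the lowest of the 12 and BMDC libraries the highest. Cpt1a fell with LPS by 0.36 ± 0.043 in TolDC and by 0.15 ± 0.043 in BMDC on the log2 scale (edgeR adjusted p = 5.66e-07 and 0.00457), a difference of −0.21 ± 0.061 (adjusted p = 0.00955), and was lower in TolDC with LPS (−0.48 ± 0.043) and without (−0.27 ± 0.043). Cpt2, the inner membrane transferase, was at 16.97 ± 1.59 CPM in TolDC+LPS, 21.6 ± 1.60 in TolDC, 17.9 ± 1.21 in BMDC+LPS and 22.4 ± 1.03 in BMDC (SD, n = 3), and fell with LPS in both (−0.35 ± 0.075 and −0.32 ± 0.076). Slc25a20, the carnitine carrier between them, fell in BMDC (−0.20 ± 0.060, edgeR adjusted p = 0.00566) and was not called in TolDC (−0.096 ± 0.059, adjusted p = 0.153), and the difference was not called (0.10 ± 0.084). Neither Cpt2 nor Slc25a20 was called between cell types.

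The acyl-CoA dehydrogenases, which start each round of beta-oxidation, did not move alike, and their changes did not follow the order of chain length. Acadvl acts on very long chains, and was at 40.8, 38.5 and 40.9 CPM in TolDC+LPS, 46.8, 51.02 and 47.6 CPM in TolDC, 21.8, 26.9 and 25.6 CPM in BMDC+LPS and 25.1, 30.99 and 29.7 CPM in BMDC. All 6 TolDC libraries lay above all 6 BMDC libraries, by 1.62-fold with LPS and 1.69-fold without (log2 0.70 ± 0.078 and 0.76 ± 0.076, edgeR adjusted p = 7.29e-07 and 2.46e-07). Acadm, the medium-chain enzyme, was at 52.2, 52.2 and 51.3 CPM in TolDC+LPS, 51.7, 49.3 and 47.6 CPM in TolDC, 71.03, 68.1 and 68.7 CPM in BMDC+LPS and 70.7, 68.2 and 64.00 CPM in BMDC. There all 6 TolDC libraries lay below all 6 BMDC libraries (−0.42 ± 0.044 with LPS and −0.45 ± 0.045 without, edgeR adjusted p = 1.16e-07 and 5.91e-08), and LPS left it uncalled in both (0.067 ± 0.045 and 0.034 ± 0.044). The ratio of Acadvl to Acadm per kilobase was 0.729 ± 0.0293 in TolDC+LPS, 0.926 ± 0.0632 in TolDC, 0.338 ± 0.0428 in BMDC+LPS and 0.401 ± 0.0569 in BMDC (SD, n = 3 each). Part of Acadvl overlaps Dvl2 on the opposite strand, and counts made without regard to strand kept 44.9% of its reads. Its fall with LPS in BMDC (−0.21 ± 0.081, adjusted p = 0.0265) had overlapping libraries and was not called without BMDC replicate 2 or 3 or BMDC+LPS replicate 1 (−0.18 to −0.12).

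Acadl, the long-chain enzyme, was at 186, 171 and 179 CPM in TolDC+LPS, 213, 207 and 199.9 CPM in TolDC, 215, 199.9 and 204 CPM in BMDC+LPS and 206, 205 and 201 CPM in BMDC. The 3 TolDC+LPS libraries were below the other 9. It fell in TolDC (−0.21 ± 0.041, edgeR adjusted p = 1.61e-04) and was not called in BMDC (0.018 ± 0.041, adjusted p = 0.711), a difference of −0.23 ± 0.058 (adjusted p = 0.00371). Acads, the short-chain enzyme, was at 43.6, 41.3 and 42.1 CPM in TolDC+LPS, 49.7, 49.8 and 52.9 in TolDC, 43.6, 44.7 and 42.8 in BMDC+LPS and 59.5, 56.01 and 56.9 in BMDC. It fell with LPS by 0.26 in TolDC and by 0.39 in BMDC on the log2 scale (edgeR adjusted p = 2.20e-05 and 1.40e-07). Between cell types, Acadl was lower in TolDC with LPS (−0.21, edgeR adjusted p = 1.91e-04) and not called without (0.019, adjusted p = 0.713). Acads was lower in TolDC without LPS (−0.18, edgeR adjusted p = 0.00143) and not called with LPS (−0.046, adjusted p = 0.357).

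Of the later steps of beta-oxidation, the thiolase Acaa2, which releases acetyl-CoA, fell most. It was at 40.8, 39.4 and 39.8 CPM in TolDC+LPS, 85.1, 81.5 and 80.8 CPM in TolDC, 42.8, 40.5 and 42.1 CPM in BMDC+LPS and 109, 106 and 106 CPM in BMDC. The LPS libraries of both cell types held 39.4 to 42.8 CPM, below all unstimulated ones. The fall was 2.06-fold in TolDC (−1.04 ± 0.039, edgeR adjusted p = 2.09e-14) and 2.56-fold in BMDC (−1.36 ± 0.040, adjusted p = 4.73e-16), a difference of 0.31 ± 0.055 (adjusted p = 1.50e-04), with lower levels in TolDC than in BMDC before LPS (−0.38 ± 0.038). Echs1, the short-chain enoyl-CoA hydratase, was at 76.7, 69.2 and 73.9 CPM in TolDC+LPS, 78.8, 79.6 and 81.1 CPM in TolDC, 58.8, 57.9 and 60.8 CPM in BMDC+LPS and 92.2, 90.6 and 91.2 CPM in BMDC. It fell by 0.12 ± 0.041 in TolDC on the log2 scale (edgeR adjusted p = 0.0114, not called without TolDC+LPS replicate 2 at −0.082) and by 0.63 ± 0.042 in BMDC (adjusted p = 9.84e-11), a difference of 0.50 ± 0.058 (adjusted p = 1.32e-06). Hadh, the short-chain hydroxyacyl-CoA dehydrogenase, was at 23.7 ± 2.63 CPM in TolDC+LPS, 34.3 ± 1.94 in TolDC, 22.1 ± 1.34 in BMDC+LPS and 39.4 ± 0.509 in BMDC (SD, n = 3), and fell in both (−0.53 ± 0.068 and −0.83 ± 0.069). The difference between its responses (0.30 ± 0.097, edgeR adjusted p = 0.0184) was not called without BMDC+LPS replicate 3 (0.26).

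Hadha and Hadhb encode the alpha and beta subunits of the mitochondrial trifunctional protein, which carries out the last steps on long chains. Hadha was at 146, 142 and 139.8 CPM in TolDC+LPS, 167, 159 and 159 CPM in TolDC, 148, 138 and 148 CPM in BMDC+LPS and 172, 167 and 168 CPM in BMDC. Hadhb was at 38.2, 38.7 and 36.02 CPM in TolDC+LPS, 56.2, 56.9 and 50.8 CPM in TolDC, 42.6, 37.9 and 40.1 CPM in BMDC+LPS and 54.1, 53.7 and 52.9 CPM in BMDC. Both fell with LPS, by 0.18 ± 0.039 (Hadha) and 0.54 ± 0.052 (Hadhb) in TolDC and by 0.22 ± 0.039 and 0.41 ± 0.052 in BMDC on the log2 scale (edgeR adjusted p = 3.64e-04, 2.18e-08, 4.67e-05 and 9.35e-07), and neither was called between cell types. The ratio of Hadha to Hadhb per kilobase was 1.93 ± 0.0528 in TolDC+LPS, 1.51 ± 0.0866 in TolDC, 1.84 ± 0.0562 in BMDC+LPS and 1.61 ± 0.0162 in BMDC (SD, n = 3 each). It is uncertain, since 57.2% of the 75-base windows of Hadhb also occur in the pseudogenes Gm13910 and Gm9108. The genes lie head to head on chromosome 5, and their windows are shown because they share sequence: the start sites are 273 bases apart, and capitals mark the 228 bases present in both windows, read from opposite strands.
Hadha, chr5:30154931-30155230, minus strand: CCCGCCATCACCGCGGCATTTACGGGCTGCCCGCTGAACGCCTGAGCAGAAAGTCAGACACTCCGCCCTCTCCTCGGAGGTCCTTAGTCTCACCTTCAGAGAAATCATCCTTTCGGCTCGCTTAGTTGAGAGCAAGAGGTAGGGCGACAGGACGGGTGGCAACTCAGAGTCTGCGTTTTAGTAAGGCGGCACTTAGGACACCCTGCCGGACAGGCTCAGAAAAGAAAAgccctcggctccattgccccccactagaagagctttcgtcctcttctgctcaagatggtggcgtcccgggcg
Hadhb, chr5:30155003-30155302, plus strand: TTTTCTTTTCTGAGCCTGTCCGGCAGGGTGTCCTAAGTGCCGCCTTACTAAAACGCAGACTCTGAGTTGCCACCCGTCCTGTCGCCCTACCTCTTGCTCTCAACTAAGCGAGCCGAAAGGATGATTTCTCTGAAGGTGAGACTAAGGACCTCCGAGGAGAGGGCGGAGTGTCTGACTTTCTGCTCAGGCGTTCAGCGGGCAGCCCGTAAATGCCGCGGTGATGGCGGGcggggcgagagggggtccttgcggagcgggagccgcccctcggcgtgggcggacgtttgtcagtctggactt

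Electrons from the acyl-CoA dehydrogenases pass to electron transfer flavoprotein (Etfa and Etfb) and on to ubiquinone through Etfdh. Etfa was at 75.2, 75.9 and 73.3 CPM in TolDC+LPS, 108, 100.5 and 101 CPM in TolDC, 97.4, 88.1 and 89.5 CPM in BMDC+LPS and 145, 138 and 139.5 CPM in BMDC. The 4 groups did not overlap. Etfa fell with LPS (−0.46 ± 0.043 in TolDC and −0.62 ± 0.043 in BMDC, edgeR adjusted p = 1.82e-08 and 2.09e-10) and was lower in TolDC, with LPS (−0.30 ± 0.044) and without (−0.45 ± 0.043). The difference between responses (0.16 ± 0.061, adjusted p = 0.0428) was not called in 7 of the 12 fits that left out 1 library each (BMDC replicate 1, BMDC+LPS replicates 2 and 3, TolDC replicates 2 and 3, TolDC+LPS replicates 1 and 2; 0.13 to 0.16). Etfb, at 6.27, 6.93 and 7.21 CPM in TolDC+LPS, 12.6, 12.2 and 11.5 in TolDC, 7.88, 7.74 and 9.21 in BMDC+LPS and 16.1, 17.02 and 15.3 in BMDC, followed the same order, but 66.3% of its 75-base windows lie in the overlapping gene Gm45233 on the same strand, so its counts are partial. Etfdh fell by 0.33 in TolDC and by 0.35 in BMDC on the log2 scale (edgeR adjusted p = 1.25e-05 and 5.25e-06).

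Acat1, the mitochondrial acetoacetyl-CoA thiolase of ketone body and isoleucine breakdown (ENSMUSG00000032047, chr9:53580522-53610382, minus strand), was at 30.3, 29.5 and 29.2 CPM in TolDC+LPS, 81.5, 80.4 and 78.6 CPM in TolDC, 35.5, 34.97 and 36.7 CPM in BMDC+LPS and 94.7, 101 and 93.6 CPM in BMDC. It fell 2.70-fold in TolDC and 2.70-fold in BMDC (log2 −1.43 ± 0.042 and −1.43 ± 0.042, edgeR adjusted p = 5.78e-16 and 5.28e-16). The difference between responses was −0.0023 ± 0.059. TolDC stood below BMDC at each condition (−0.27 ± 0.044 with LPS and −0.27 ± 0.039 without).

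Summed over the 35 genes, transcripts took 3082 ± 64.6 CPM in TolDC+LPS, 4459 ± 85.5 CPM in TolDC, 3200 ± 89.4 CPM in BMDC+LPS and 4858 ± 70.4 CPM in BMDC (SD, n = 3 each). Both LPS groups lay below both unstimulated groups in every library. In this sum, which is not scaled for transcript length, Mdh2 took the largest part in TolDC+LPS, TolDC and BMDC. In BMDC+LPS Cs took the largest part, though per kilobase Mdh2 stood above it (262 against 145 CPM per kb).

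Neighbouring genes of the same pathways, on lists chosen with earlier results of these data known, were counted in the same tests. Of 12 tested further genes of the TCA cycle, 9 fell and 3 rose with LPS in TolDC, and the same counts held in BMDC. Over all tested genes, 35.9% fell and 35.4% rose in TolDC, and 36.4% fell and 36.7% rose in BMDC. The succinate dehydrogenase subunit gene Sdha was at 246 ± 6.62 CPM in TolDC+LPS, against 380.3 ± 11.7 CPM in TolDC, and at 316 ± 19.9 CPM in BMDC+LPS, against 483 ± 19.3 CPM in BMDC (SD, n = 3; −0.63 ± 0.046 and −0.61 ± 0.046, edgeR adjusted p = 4.81e-10 and 6.36e-10). Among the rises was Acod1, whose enzyme turns the cycle intermediate cis-aconitate into itaconate. It was at 3042, 2837 and 2874 CPM in TolDC+LPS, against 76.8, 69.7 and 70.5 CPM in TolDC, and at 2599, 2511 and 2526 CPM in BMDC+LPS, against 84.4, 78.6 and 79.7 CPM in BMDC. Acod1 thus rose 40.3-fold and 31.5-fold (edgeR adjusted p = 1.50e-22 and 1.51e-22). Of 8 tested pyruvate carriers and dehydrogenase regulators, 6 fell in each cell type, where 35.9% (TolDC) and 36.4% (BMDC) of all tested genes fell. In TolDC 1 of the 8 rose, where 35.4% of all tested genes rose. Pdk1, a kinase that inhibits pyruvate dehydrogenase, fell by 1.13 ± 0.045 in TolDC and by 0.81 ± 0.046 in BMDC on the log2 scale, and Mpc2, a subunit of the pyruvate carrier, by 0.41 ± 0.047 and 0.86 ± 0.048. Other kinase and phosphatase genes of the list moved unequally. Pdk3 averaged 44.3 CPM in TolDC+LPS, 36.2 in TolDC, 37.9 in BMDC+LPS and 35.8 in BMDC. In that order the phosphatase gene Pdp1 averaged 14.8, 13.8, 14.7 and 20.3 CPM, and Pdp2 9.21, 13.4, 15.3 and 19.2.

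Of 12 tested genes of anaplerosis and export, 3 rose and 7 fell with LPS in TolDC, where 35.4% of all tested genes rose and 35.9% fell. In BMDC 7 of the 12 rose and 2 fell, where 36.7% of all tested genes rose and 36.4% fell. The difference between responses was called negative for 10 of the 12 and positive for 1, beside 24.0% and 20.4% of all tested genes. Without LPS, 9 of the 12 were already lower and 3 higher in TolDC than in BMDC, beside 30.4% and 32.0%. Acly, the ATP citrate lyase that makes cytosolic acetyl-CoA, was at 283, 268 and 273 CPM in TolDC+LPS, 307, 287 and 287 in TolDC, 543, 478 and 488 in BMDC+LPS and 377, 333 and 337 in BMDC. The BMDC+LPS libraries were above all others (difference −0.62 ± 0.075, edgeR adjusted p = 2.56e-06). Slc25a13, an aspartate-glutamate carrier, was at 27.5, 23.4 and 25.4 CPM in TolDC+LPS, 50.8, 46.6 and 47.3 in TolDC, 67.5, 60.4 and 60.05 in BMDC+LPS and 64.2, 59.6 and 56.1 in BMDC, with a difference of −0.99 ± 0.090 (adjusted p = 1.11e-07). In TolDC+LPS against BMDC+LPS, 8 of the 12 were lower (33.7% of all tested genes), among them Slc25a10, the dicarboxylate carrier (−0.89 ± 0.041), and Me1, the cytosolic malic enzyme (−1.60 ± 0.15).

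Fatty acid uptake and activation, 15 tested, was split, with 6 rises and 7 falls in each cell type. Over all tested genes 35.4% rose and 35.9% fell in TolDC, and 36.7% and 36.4% in BMDC, so these counts lie near the background. Acsl1, a long-chain acyl-CoA synthetase, rose to 413, 611 and 565 CPM in TolDC+LPS, against 25.1, 26.9 and 27.8 CPM in TolDC, and to 533, 704 and 690.4 CPM in BMDC+LPS, against 46.2, 55.3 and 51.2 CPM in BMDC (log2 4.31 ± 0.19 and 3.66 ± 0.18, edgeR adjusted p = 3.69e-08 and 7.80e-08). Its libraries numbered 1 were the lowest of the LPS groups. Fabp5, a fatty acid binding protein, was at 107, 96.2 and 99.1 CPM in TolDC+LPS, 32.7, 34.9 and 33.3 in TolDC, 236, 229.7 and 236 in BMDC+LPS and 258, 246 and 238 in BMDC. It was lower in TolDC (−2.88 ± 0.048 without LPS, edgeR adjusted p = 8.19e-19) and rose with LPS there (1.58 ± 0.048). Of 20 tested further fatty acid oxidation genes, 10 fell and 5 rose in TolDC, and 11 fell and 2 rose in BMDC. The shares over all tested genes are those given above for uptake and activation. Hsd17b10, a mitochondrial hydroxyacyl-CoA dehydrogenase of branched chains, fell by 0.22 ± 0.051 in TolDC and by 1.05 ± 0.055 in BMDC (difference 0.83 ± 0.076, edgeR adjusted p = 6.62e-08).

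Among 14 tested transcriptional regulators of these pathways, 5 rose and 6 fell with LPS in TolDC, and 8 rose and 5 fell in BMDC. Over all tested genes 35.4% rose and 35.9% fell in TolDC, and 36.7% and 36.4% in BMDC. The TolDC counts lie near these shares. Pparg, a nuclear receptor of lipid metabolism, was at 8.94, 9.25 and 9.44 CPM in TolDC+LPS, against 44.2, 45.4 and 43.3 CPM in TolDC, and at 15.6, 18.2 and 16.7 CPM in BMDC+LPS, against 41.5, 45.8 and 45.97 CPM in BMDC. It fell more in TolDC (difference −0.86 ± 0.087, edgeR adjusted p = 2.49e-07). Myc, whose product raises many metabolic genes, fell by 1.75 ± 0.067 in TolDC and by 1.73 ± 0.074 in BMDC on the log2 scale and was higher in TolDC in both conditions (0.74 ± 0.077 with LPS and 0.75 ± 0.064 without). Mean levels of Gabpb1 and Nrf1 were higher with LPS in both cell types. Gabpb1 averaged 36.8 CPM in TolDC+LPS, 18.2 in TolDC, 38.0 in BMDC+LPS and 15.9 in BMDC. In that order Nrf1 averaged 29.6, 21.3, 23.6 and 18.6 CPM. Hif1a, the hypoxia-inducible factor that drives glycolytic genes, was at 734 ± 50.8 CPM in TolDC+LPS, 527 ± 21.6 in TolDC, 306 ± 22.2 in BMDC+LPS and 254 ± 4.13 in BMDC (SD, n = 3), higher in TolDC by 1.26 ± 0.054 with LPS and 1.05 ± 0.054 without (edgeR adjusted p = 4.66e-13 and 8.04e-12).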

How the data were processed

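The deposited values are raw read counts per gene, 1 table for each of the 12 libraries. Per the submitters' processing notes the authors used cutadapt, STAR, edgeR and limma with mouse genome mm10 (GRCm38). Versions, annotation and settings were not given in the sources used here. Per the labels' protocols the kits were ISOLATE II RNA Mini for RNA and Illumina Stranded mRNA Prep for libraries. Each table holds counts without regard to strand (column 2) and on each strand (columns 3 and 4). Column 4 held 35.2 to 37.3 times the total of column 3 and was used. Reads that match several places are left out by this counting. A reporter sequence listed as 1 gene row held 0 counts.

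Symbols, positions and lengths came from GENCODE M21 (GRCm38), which matched 31011 of 31054 gene rows and all 35 genes described. Genes were filtered with filterByExpr and scaled by TMM (factors 0.945 to 1.04), and a robust quasi-likelihood model with a mean per group was fitted to all 12 libraries (edgeR 4.0.16, R 4.3.3), with a biological coefficient of variation of 0.0572. The 5 comparisons were each adjusted by Benjamini-Hochberg over 13141 genes. SEs were taken from the log2 change and its F statistic. Apart from the parts of the CPM sum, levels were compared between genes only per kilobase of the principal transcript. Their ratios were compared by exact two-sided permutation tests, for which 0.1 is the smallest p. Shared sequence was counted in windows of 75 bases. The procedure was also run on simulated counts, drawn independently for each library. They held no shift of the libraries numbered 1 and no correlation of same-numbered libraries, so they give no error rate for these data.

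The 35 genes and all lists were chosen with earlier results of these data known. Genes with values in every library were, by a rule written down beforehand, the 6 called members with the largest change in each comparison and at least 5 CPM in the higher group, called members against the majority, and alternative forms of an enzyme. Up to 3 called genes were eligible from each list of related genes, and some of these are left out of the text. Marker lists of B cells, T and NK cells, erythroid cells and adipocytes with stroma summed to at most 5.45 CPM in any library, with Plin1, Col1a2 and Dcn at 0 in all TolDC and BMDC libraries. Macrophage markers summed to 1340.5 to 1572 CPM in TolDC+LPS, 836 to 857 CPM in TolDC, 812 to 954 CPM in BMDC+LPS and 798 to 824 CPM in BMDC. Their part in the results was not tested. Library numbers were not treated as pairs in the main fit. Deviations of same-numbered libraries from their group means correlated positively in all 18 pairs, at 0.091 to 0.466, with 1 pair below 0.1. The pairs numbered 1 correlated most, at 0.330 to 0.466. Alternatives were other normalizations, column 2, DESeq2 1.42.0, limma 3.58.1 (voom), no filter, fewer libraries and a replicate block.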

Additional observations from a re-analysis of the deposited data

Results flagged for a closer look

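For 17 of the 35 genes the LPS responses of TolDC and BMDC differed in edgeR's quasi-likelihood test of that difference, TolDC response minus BMDC response on the log2 scale. The response was higher in TolDC for Idh1 (0.79), Pdhb (0.56), Echs1 (0.50), Mdh2 (0.43), Acaa2 (0.31), Sucla2 (0.30), Hadh (0.30), Dld (0.27), Idh2 (0.26), Mdh1 (0.21), Ogdh (0.16) and Etfa (0.16). It was lower in TolDC for Pcx (−0.66), Cs (−0.54), Acadl (−0.23), Pdha1 (−0.21) and Cpt1a (−0.21). Among all tested genes 44.4% had a called difference, so the share of 17 in 35 lies near the background.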

How the results depend on the processing

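Member counts were recomputed under 11 other settings (10 for the difference between responses, which has no form with only the 2 groups compared) and without each library in turn. Falls with LPS in TolDC numbered 26 to 32 (28 to 29 without 1 library) and in BMDC 28 to 30 (28 to 30). Lower genes in TolDC against BMDC numbered 20 to 25 without LPS (19 to 22) and 12 to 18 with LPS (12 to 16). Higher genes numbered 5 in every setting without LPS and 6 to 9 with LPS (6 to 7). The difference between responses gave 7 to 14 positive (9 to 12) and 3 to 5 negative genes (5). The lowest counts, 7 and 3, came from libraries 2 and 3 of each group summed to 1 sample, which leaves 2 samples per group. The counts over all tested genes moved as well. Differences called positive numbered 2683 in the main fit, 3357 with upper-quartile factors and 1994 in the summed setting. Those called negative numbered 3151, 2665 and 2424 in that order. Tested genes numbered 13141, and 13613 in the summed setting. Falls with LPS in TolDC numbered 4719 in the main fit and 5610 with library totals only. With a replicate block the falls were 29 in TolDC and 30 in BMDC, the lower genes 23 without and 16 with LPS, and the differences 12 and 5. The main fit did not use the block, although all 18 same-numbered pairs correlated positively (0.091 to 0.466). Whether same-numbered libraries share a batch was not tested, and the labels do not say.

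Of 127 called gene results, 108 held their call under every setting run, and the 19 that lost it somewhere had log2 changes of at most 0.33. Of the 48 uncalled results, 16 were called under some setting, most often Idh3b in TolDC against BMDC without LPS (15 settings, replicate block included; −0.13 to −0.080). Over the settings, 25 results took both signs, none of them called in the report. The one called with the opposite sign was Sucla2 with LPS in TolDC, not called at 0.0011 and called at −0.097 with library totals only. Depth limits Suclg2 and Pcx most, at a few CPM. Protein, flux and cell numbers were not measured in these files.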
